A study of Pelodiscus sinensis with 8 samples.

Results

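Retinoic acid is made from vitamin A in cells that express a retinaldehyde dehydrogenase, moves to neighbouring cells, binds nuclear receptors there, and is hydroxylated by enzymes of the CYP26 family in cells that clear it. In the limbs of mouse and chick, retinoic acid is present in the tissue between the digits and acts in its regression, and CYP26 enzymes keep it out of other parts of the limb. The 5 genes described here are the synthesis enzyme gene ALDH1A2 (ENSPSIG00000017126), the breakdown enzyme genes CYP26A1 (ENSPSIG00000017898), CYP26B1 (ENSPSIG00000013313) and CYP26C1 (ENSPSIG00000017810), and the receptor gene RARB (ENSPSIG00000007930). They were taken by symbol, each symbol stood once in the table, and they are 5 of 19328 genes. All 5 were among the 14386 genes with enough counts to be tested.

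RNA was sequenced from the interdigital webs of wild-type embryos of the Chinese soft-shell turtle (Pelodiscus sinensis), an aquatic turtle with webbed feet, all at Tokita-Kuratani stage 19. There were 4 forelimb and 4 hindlimb libraries, 1 for each web, with web 1 beside digit I and web 4 beside digit V, and each was a pool of 40 webs, from both body sides of the same 20 individuals. The labels give the forelimb libraries the tag "ICD" and the hindlimb libraries "anti-ICD" and do not explain it. The same animals gave all 8 libraries and no web has a second pool, so the p-values below measure the spread between these pools and not between animals.

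The libraries held 53116512 to 65849337 counts. TBX4, a hindlimb factor, stood at 136 ± 16.1 TPM in the hindlimb and 1.25 ± 1.27 TPM in the forelimb, and TBX5, a forelimb factor, at 1.52 ± 0.465 and 70.7 ± 7.78 TPM (SD, n = 4 each), so the limb labels match these genes. TPM is the authors' value per transcript length, and levels of different genes are compared on that scale. Counts, or counts scaled by library size (CPM), are given beside it in places. Of 6 limb mesenchyme markers 4 stood under a symbol, and their summed level was 1169.7 to 1896 TPM in the forelimb and 1098 to 1669 TPM in the hindlimb, PRRX1 among them. In such bulk tissue, fewer cells of a type and less RNA per cell cannot be told apart.

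The 3 CYP26 genes were graded from digit I to digit V, and in opposite directions. CYP26A1 and CYP26C1 rose toward web 4 in both limbs, CYP26B1 fell, and ALDH1A2 and RARB did not pass the test for a slope. Over the 8 libraries the mean level was 25.1 ± 10.2 TPM for CYP26A1, 19.9 ± 8.96 for CYP26B1, 18.6 ± 2.67 for RARB, 3.72 ± 2.0 for CYP26C1 and 3.05 ± 0.856 for ALDH1A2 (SD, n = 8). The ranges of mean ± SD overlapped among the first 3 genes of that order, and also between the last pair. These SDs include the differences between webs. Of the tested genes, 22.6% had a lower mean TPM than ALDH1A2, 25.1% than CYP26C1, 54.9% than RARB, 56.7% than CYP26B1 and 62.6% than CYP26A1.

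**Figure D1:**
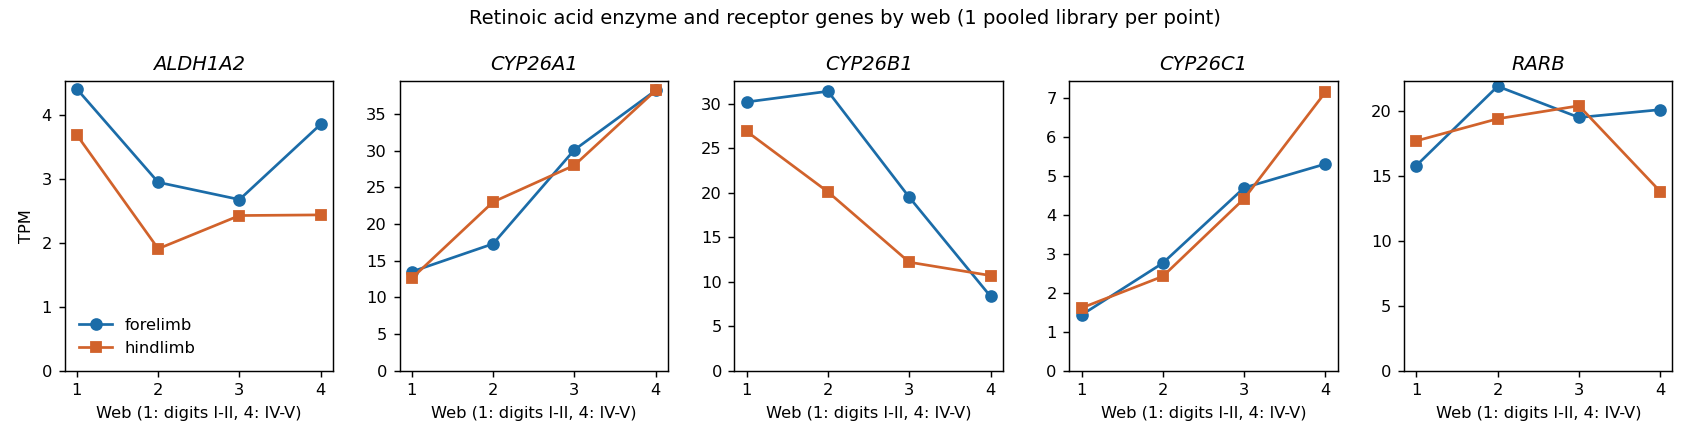
TPM (vertical axis, from 0) of the 5 genes in webs 1 to 4 (horizontal axis) of the forelimb (circles) and hindlimb (squares). Each point is 1 pooled library and carries no error bar. CYP26A1 and CYP26C1 climb from web 1 to web 4, CYP26B1 declines, and ALDH1A2 and RARB did not pass the test for a slope.

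CYP26A1 encodes the family member that is induced by retinoic acid in many vertebrate tissues. Its level in forelimb webs 1 to 4 was 13.5, 17.3, 30.1 and 38.2 TPM, from 626, 872, 1267 and 1720 counts. In hindlimb webs 1 to 4 it was 12.6, 23.0, 28.0 and 38.2 TPM, from 524, 1037, 1245 and 1688 counts. The level was higher at every step toward digit V in each limb, a pattern shown by 0.918% of tested genes (2.77% fell at every step), and the limbs overlapped over nearly their whole range. The slope was 0.54 ± 0.0527 log2 units per web (SE; edgeR quasi-likelihood test with limb as covariate, Benjamini-Hochberg adjusted p = 1.3e-04), a fitted 3.07-fold rise from web 1 to web 4.

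CYP26C1, whose enzyme also clears retinoic acid, followed the same course at a lower level. It stood at 1.43, 2.76, 4.69 and 5.30 TPM in forelimb webs 1 to 4 and at 1.61, 2.42, 4.41 and 7.14 TPM in hindlimb webs 1 to 4. It too was higher at each step in each limb, and the lowest library, forelimb web 1, held 86 counts. The slope was 0.71 ± 0.0816 log2 units per web (edgeR, adjusted p = 3.0e-04), a fitted 4.38-fold rise.

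CYP26B1 is the enzyme that clears retinoic acid from the distal limb bud in mouse, where its loss shortens the limbs. It ran at 30.2, 31.4, 19.5 and 8.36 TPM in forelimb webs 1 to 4, from 5827, 6595, 3412 and 1568 counts. In hindlimb webs 1 to 4 it ran at 26.9, 20.1, 12.2 and 10.7 TPM, from 4638, 3765, 2266 and 1975 counts. The hindlimb values fell at each step, while forelimb webs 1 and 2 were close together and the drop came in webs 3 and 4. The slope was -0.51 ± 0.0702 log2 units per web (edgeR, adjusted p = 9.0e-04), a fitted 2.91-fold fall.

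Over all tested genes, 4.48% rose and 6.65% fell along the webs at the same threshold, 11.1% in all. Of the 5 genes described here 3 passed, 2 rising and 1 falling. The split of all calls depends on the scaling: 40.2% of the calls were rising genes here, 30.1% with scaling by library size alone and 26.3% on log2(TPM + 1), while the 3 CYP26 calls held with all 3 scalings. The 2 libraries of a web share a position, and all libraries share animals, which the fit ignores. With the counts of both limbs summed per web, an analysis added after the data were seen, the slopes were 0.54 for CYP26A1, 0.71 for CYP26C1 and -0.53 for CYP26B1 (edgeR, adjusted p = 0.0022, 0.0077 and 0.0057).

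The direction was the same when each limb was given its own slope. CYP26A1 had slopes of 0.56 ± 0.0766 in the forelimb and 0.52 ± 0.0793 in the hindlimb (edgeR, adjusted p = 0.0041 and 0.01). For CYP26C1 the slopes were 0.67 ± 0.122 and 0.75 ± 0.117 (adjusted p = 0.013 and 0.011). For CYP26B1 they were -0.60 ± 0.104 and -0.45 ± 0.0952 (adjusted p = 0.012 and 0.037). At this threshold 4.37% of tested genes had a slope in the forelimb (1.52% rising, 2.85% falling) and 3.29% in the hindlimb (1.45% rising, 1.84% falling). The difference between the limbs' slopes did not pass for any of the 5 genes (adjusted p = 1.0 each), with intervals of -0.28 to 0.21 for CYP26A1, -0.30 to 0.45 for CYP26C1 and -0.16 to 0.46 for CYP26B1 (95%, log2 units per web). No gene of the 14386 passed that interaction test in edgeR (0%, with 558 at an unadjusted p under 0.05), against 1 in DESeq2, 0 in limma-voom and 1 (0.00695%, a lower slope in the hindlimb) with web number as a replicate block.

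Because the 3 genes moved in opposite directions, their sum on the TPM scale varied less than its parts. Summed CYP26 transcripts ran from 45.1 to 54.3 TPM in the forelimb and from 41.1 to 56.1 TPM in the hindlimb, a ratio of 1.36 between the highest and lowest of the 8 libraries. On that scale the make-up of the sum changed. In web 1 CYP26B1 made up 66.9% of it in the forelimb and 65.4% in the hindlimb, and in web 4 it made up 16.1% and 19.2%. CYP26A1 went from 29.9% and 30.7% in web 1 to 73.6% and 68.1% in web 4.

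The level of CYP26A1 relative to CYP26B1 was 0.447, 0.550, 1.54 and 4.57 in forelimb webs 1 to 4 and 0.470, 1.15, 2.29 and 3.56 in hindlimb webs 1 to 4. On the TPM scale CYP26A1 thus exceeded CYP26B1 from web 3 onward in the forelimb and from web 2 onward in the hindlimb. This order rests on the transcript lengths behind TPM. In counts, which carry no length correction, web 4 held 1720 for CYP26A1 and 1568 for CYP26B1 in the forelimb. In hindlimb web 4 the counts were 1688 and 1975, and in webs 1 to 3 of each limb CYP26B1 had more. CYP26A1 stood 5.36 to 9.5 times above CYP26C1 in the 8 libraries. These shares are descriptions of single pools and were not tested.

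**Figure D2:**
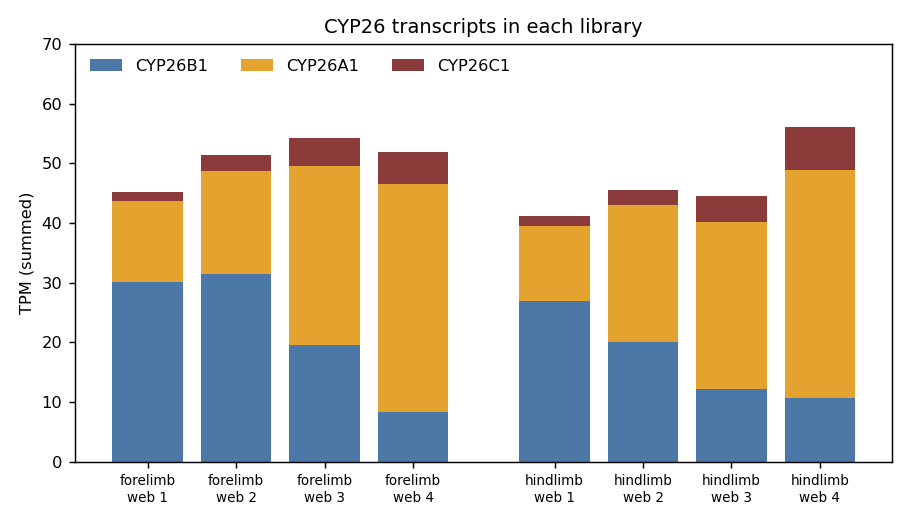
Summed TPM of the CYP26 genes (vertical axis, bars from 0) in each of the 8 libraries, stacked as CYP26B1, CYP26A1 and CYP26C1. On this length-corrected scale the bar height stays between 41.1 and 56.1 TPM while the CYP26B1 part shrinks and the CYP26A1 part grows toward web 4.

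In the RefSeq annotation of this species (assembly ASM4963464v1), used here for gene order and gaps only, CYP26A1 and CYP26C1 are next to each other. The genes on their outer sides did not follow them. MYOF, beside CYP26A1, had a slope of -0.047 ± 0.0263 and EXOC6, beside CYP26C1, of -0.022 ± 0.0347 (edgeR, adjusted p = 0.30 and 0.75). CYP26B1 lies between EXOC6B, 59479 bases away, and DYSF, 697804 bases away. EXOC6B had a slope of -0.012 ± 0.0495 (adjusted p = 0.92), and DYSF, at a mean of 1.34 TPM, fell at -0.41 ± 0.113 (adjusted p = 0.04). AQP9 lies 32 bases from ALDH1A2 and TOP2B 44 bases from RARB, at means of 5.87 and 83.2 TPM. Neither passed for a slope (adjusted p = 0.32 and 0.26). Whether their reads add to the values of ALDH1A2 and RARB was not tested. Over the 8 libraries log2 CPM of CYP26A1 correlated with CYP26C1 at 0.957 and with CYP26B1 at -0.908, values that share the web order and carry no test.

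Levels of some cell type markers also differed between the webs. The 3 epidermis markers with a symbol summed to 3541, 1984, 888 and 767 TPM in forelimb webs 1 to 4 and to 2441, 1521, 772 and 739 TPM in hindlimb webs 1 to 4, of which KRT15 is the bulk. Within that list TP63 rose (0.22 ± 0.0477 log2 units per web, adjusted p = 0.014), KRT15 fell (-0.81 ± 0.0665, adjusted p = 3.7e-05) and EPCAM did not pass. Of 5 macrophage markers 4 had a symbol and summed to 69.8, 49.2, 26.7 and 29.3 TPM in the forelimb webs and 54.6, 38.8, 28.8 and 32 TPM in the hindlimb webs.

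Endothelial markers, 5 of 6 with a symbol, summed to 39.9, 48.2, 40.4 and 23.1 TPM and to 46.2, 42.1, 38.7 and 29.9 TPM. Limb mesenchyme markers summed to 1552, 1896, 1491 and 1169.7 TPM and to 1669, 1614, 1284 and 1098 TPM, with PRRX1, MSX1 and LHX9 falling along the webs and TWIST2 rising. Muscle markers, 3 of 6 with a symbol, summed to 49.7, 29.4, 15.6 and 42 TPM and to 86, 30.7, 27 and 15.8 TPM. Of these 3 muscle markers 0 passed the test for a slope in edgeR, beside 11.1% of all tested genes, with 2 at an unadjusted p under 0.05. The 5 marker sums given so far were lower in web 4 than in web 1 of each limb, as CYP26B1 was. Of all tested genes, 44.3% had a lower TPM in web 4 than in web 1 of both limbs, and 22.6% a higher one. The part of these marker sums in the CYP26B1 slope was not tested. Cartilage markers, 7 of 7 with a symbol, summed to 199 to 269 TPM over all libraries. COL11A1, COL2A1 and SOX9 averaged 99.8, 66.6 and 65.3 TPM. ACAN and MATN1 stayed under 1 TPM in each library and had 0 counts in forelimb web 3. Of the 7, 2 passed the test for a slope in edgeR. COL2A1 rose (0.19 ± 0.0415 log2 units per web, adjusted p = 0.012) and SOX9 fell (-0.11 ± 0.0288, adjusted p = 0.039). Erythroid markers, 2 of 6 with a symbol, summed to 1116 to 1895 TPM in the forelimb and 561 to 1178 TPM in the hindlimb.

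ALDH1A2 is the enzyme that makes most retinoic acid in early mouse and chick embryos and is the one found between the digits there. In the turtle webs it stood at 4.41, 2.95, 2.68 and 3.86 TPM in forelimb webs 1 to 4, from 625, 455, 345 and 532 counts. In hindlimb webs 1 to 4 it stood at 3.69, 1.91, 2.43 and 2.44 TPM, from 467, 263, 330 and 329 counts. Web 1 was the highest in each limb, and forelimb web 4 was higher than webs 2 and 3. Its slope was -0.086 ± 0.0893 log2 units per web (edgeR, adjusted p = 0.60), and the test for any difference among the 4 webs, which 9.38% of genes passed, gave an adjusted p of 0.12.

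The other genes of its family differed from it by a wide margin. ALDH1A3, which encodes another retinaldehyde dehydrogenase, known from the eye and nasal region of mouse embryos, stood at 250.1, 389, 401 and 233 TPM in forelimb webs 1 to 4. In hindlimb webs 1 to 4 it stood at 340.5, 385, 378 and 245 TPM. That is 56.7 to 202 times the TPM of ALDH1A2 in the same library, and in counts 368837 against 3346 over all libraries. Which gene model is ALDH1A2 and which ALDH1A3 (ENSPSIG00000014175) rests on the authors' symbols, which were not checked by sequence, and so do the ratios below. ALDH1A1 averaged 0.766 ± 0.448 TPM, so ALDH1A3 made up 97.6% to 99.4% of the summed ALDH1A transcripts. Of all tested genes, 97.5% had a lower mean TPM than ALDH1A3.

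ALDH1A3 was higher in webs 2 and 3 than in webs 1 and 4 of each limb. It passed the test for any difference among the webs, with a fitted log2 range of 0.59 between the highest and the lowest web (edgeR, adjusted p = 0.014). It did not pass the test for a slope (-0.051 ± 0.0814, adjusted p = 0.75). Without forelimb web 3 the call for any difference ended (adjusted p = 0.076), and without web 1 of both limbs the slope passed, at -0.29 (0.038). ALDH1A1 passed neither test (adjusted p = 0.46 and 0.49).

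**Figure D3:**
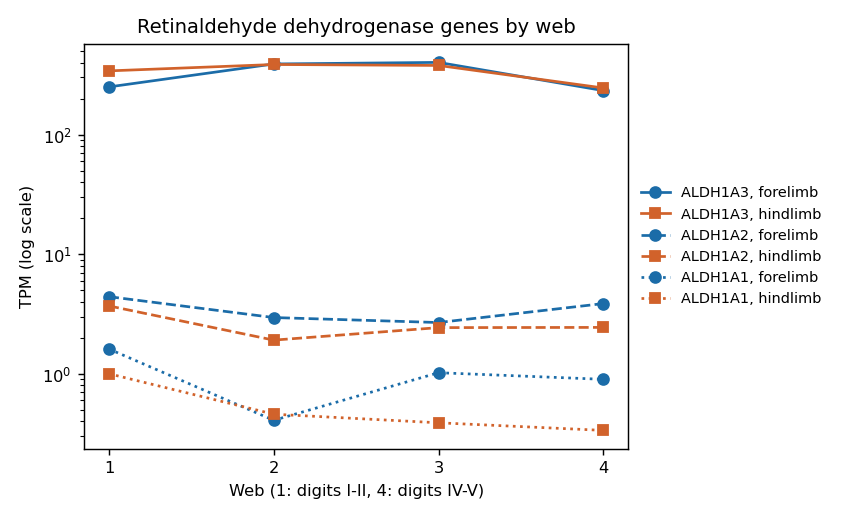
TPM on a log axis (vertical) of ALDH1A3 (solid lines), ALDH1A2 (dashed) and ALDH1A1 (dotted) in webs 1 to 4 (horizontal) of the forelimb (circles) and hindlimb (squares), 1 pooled library per point. ALDH1A3 lies between 233 and 401 TPM in all libraries, and ALDH1A2 between 1.91 and 4.41 TPM.

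The ratio of synthesis to breakdown enzymes, as ALDH1A2 over the summed CYP26 TPM, was 0.0978, 0.0574, 0.0494 and 0.0745 in forelimb webs 1 to 4. In hindlimb webs 1 to 4 it was 0.0898, 0.0420, 0.0543 and 0.0434. On the TPM scale breakdown transcripts thus exceeded ALDH1A2 transcripts 10.2-fold to 23.8-fold, and web 1 had the highest ratio in each limb. On the log2 scale the mean was -3.89 ± 0.434 in the forelimb and -4.19 ± 0.506 in the hindlimb (SD, n = 4). The difference of -0.30 is smaller than either SD, but those SDs are spread among web positions. Web by web, the hindlimb ratio was lower in webs 1, 2 and 4 and higher in web 3.

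Counting all 3 ALDH1A genes as synthesis turned the ratio over. It was then 5.68, 7.63, 7.45 and 4.58 in forelimb webs 1 to 4 and 8.40, 8.51, 8.53 and 4.41 in hindlimb webs 1 to 4, with web 4 the lowest in each limb. The limb means on the log2 scale became 2.63 and 2.85. With ALDH1A2 over CYP26B1 alone, web 4 was the highest in each limb, at 0.462 against 0.146 in web 1 of the forelimb and 0.227 against 0.137 in web 1 of the hindlimb. The order of the webs therefore depends on which synthesis and breakdown genes are counted. It also depends on the scale. In forelimb webs 1 and 4, ALDH1A2 stood at 10.5 and 9.73 CPM and ALDH1A3 at 597 and 618 CPM. CYP26B1 stood there at 97.6 and 28.7 CPM and CYP26A1 at 10.5 and 31.5 CPM. In CPM both ratios to summed CYP26 were thus higher in forelimb web 4 than in web 1. In the hindlimb web 1 stayed above web 4. The ratio, being a score over chosen genes, was given no test.

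**Figure D4:**
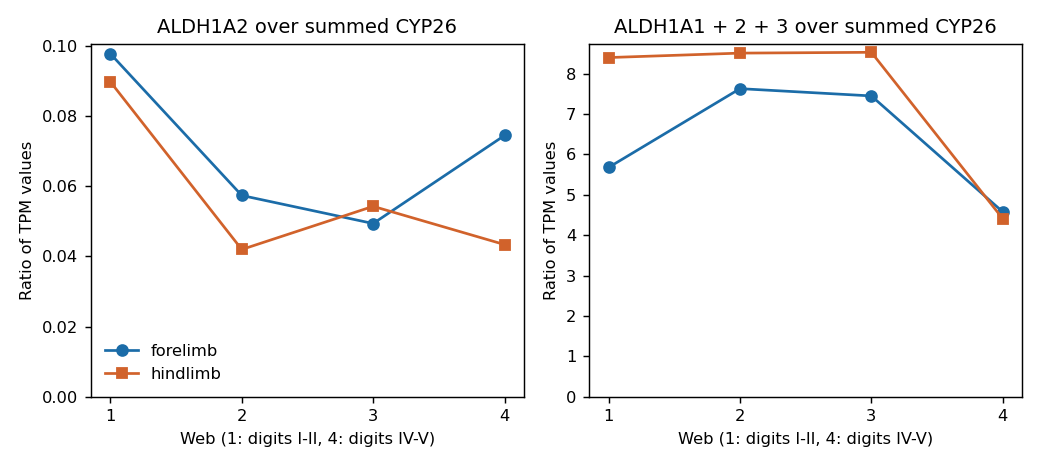
Ratio of TPM values (vertical axes, from 0) in webs 1 to 4 (horizontal) of the forelimb (circles) and hindlimb (squares), 1 library per point. On the left, ALDH1A2 over summed CYP26 lies between 0.0420 and 0.0978 and is highest in web 1. On the right, all 3 ALDH1A genes over summed CYP26 lie between 4.41 and 8.53, with web 4 lowest.

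RARB encodes a retinoic acid receptor whose own gene is induced by retinoic acid, and in mouse it marks the interdigital tissue. It stood at 15.8, 21.9, 19.5 and 20.1 TPM in forelimb webs 1 to 4, from 3724, 5621, 4164 and 4601 counts. In hindlimb webs 1 to 4 it stood at 17.7, 19.4, 20.4 and 13.8 TPM, from 3735, 4451, 4611 and 3092 counts. Hindlimb web 4 was the lowest library and forelimb web 2 the highest, and the limbs overlapped. The slope was 0.021 ± 0.0601 log2 units per web (edgeR, adjusted p = 0.87), with a 95% interval of -0.11 to 0.15, so the slopes found for the CYP26 genes lie outside it.

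The slopes of RARB in the forelimb and hindlimb were 0.11 ± 0.0774 and -0.077 ± 0.0804 (adjusted p = 0.52 and 0.70). Its difference between the limbs' slopes was -0.19 ± 0.112 (adjusted p = 1.0). The test for any difference among webs gave an adjusted p of 0.42, which became 0.014 without forelimb web 4. Of 7 receptor genes 5, RARB among them, were tested and 0 passed for a slope in edgeR, with 1, PPARD, at an unadjusted p under 0.05. Over all tested genes 11.1% passed, and a list this short can hold none at that share. The most abundant of them, RARA, stood at 48.1, 58.7, 69.0 and 58.0 TPM in the forelimb webs and 53.5, 58.9, 59.7 and 52.0 TPM in the hindlimb webs, with a slope of 0.073 ± 0.0459 (adjusted p = 0.36). RARG and RXRB, for which no row carried the symbol, were not analysed here.

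None of the 5 genes passed the comparison of hindlimb against forelimb, which 0.0209% of tested genes passed in edgeR (3 of 14386, 0.00695% higher and 0.0139% lower in the hindlimb). None of the 5 reached an unadjusted p under 0.05 there, and none passed in DESeq2 or limma-voom. The log2 fold changes had wide 95% intervals for the graded genes: -0.82 to 0.97 for CYP26A1, -1.0 to 1.34 for CYP26C1 and -1.18 to 0.56 for CYP26B1. For ALDH1A2 the interval was -0.90 to 0.13 and for RARB -0.38 to 0.23. The replicate block sets the limbs against each other within webs, and 0.167% of genes passed with it (0.0904% higher, 0.0765% lower). With it the intervals narrowed to -0.17 to 0.35, -0.29 to 0.53, -0.54 to 0.042, -0.71 to -0.064 and -0.32 to 0.16 in the same order. ALDH1A2 was lower in the hindlimb in 4 of 4 webs, at -0.38 ± 0.145 with the block (unadjusted p = 0.023, adjusted p = 0.47 in edgeR). CYP26B1 was lower in the hindlimb in webs 1, 2 and 3 and higher in web 4. In TPM the other 3 genes were higher in 2 webs and lower in 2. For CYP26A1 web 4 was close to a tie, at 38.2 TPM in both limbs. In CPM it stood there at 31.5 in the forelimb and 31.0 in the hindlimb.

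Around these 5 genes, a retinoid list of 60 genes by role was examined, of which 44 stood under a symbol and 40 were tested. Leaving out the 5 genes, 35 were tested for a slope, of which 5 rose and 4 fell, beside the 4.48% and 6.65% of all genes. Of the same 35, 0 passed the limb comparison and 0 the interaction in edgeR (0 and 2 at an unadjusted p under 0.05). With the limbs summed per web, the slopes of STRA6, RDH10, DHRS3 and NR2F1 lost their calls (adjusted p 0.051 to 0.14) and those of LRAT, CRABP2, MEIS1, TGM2 and BMP7 did not. The list was drawn up with earlier results of these data known, so its counts are given as a description.

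**Figure D5:**
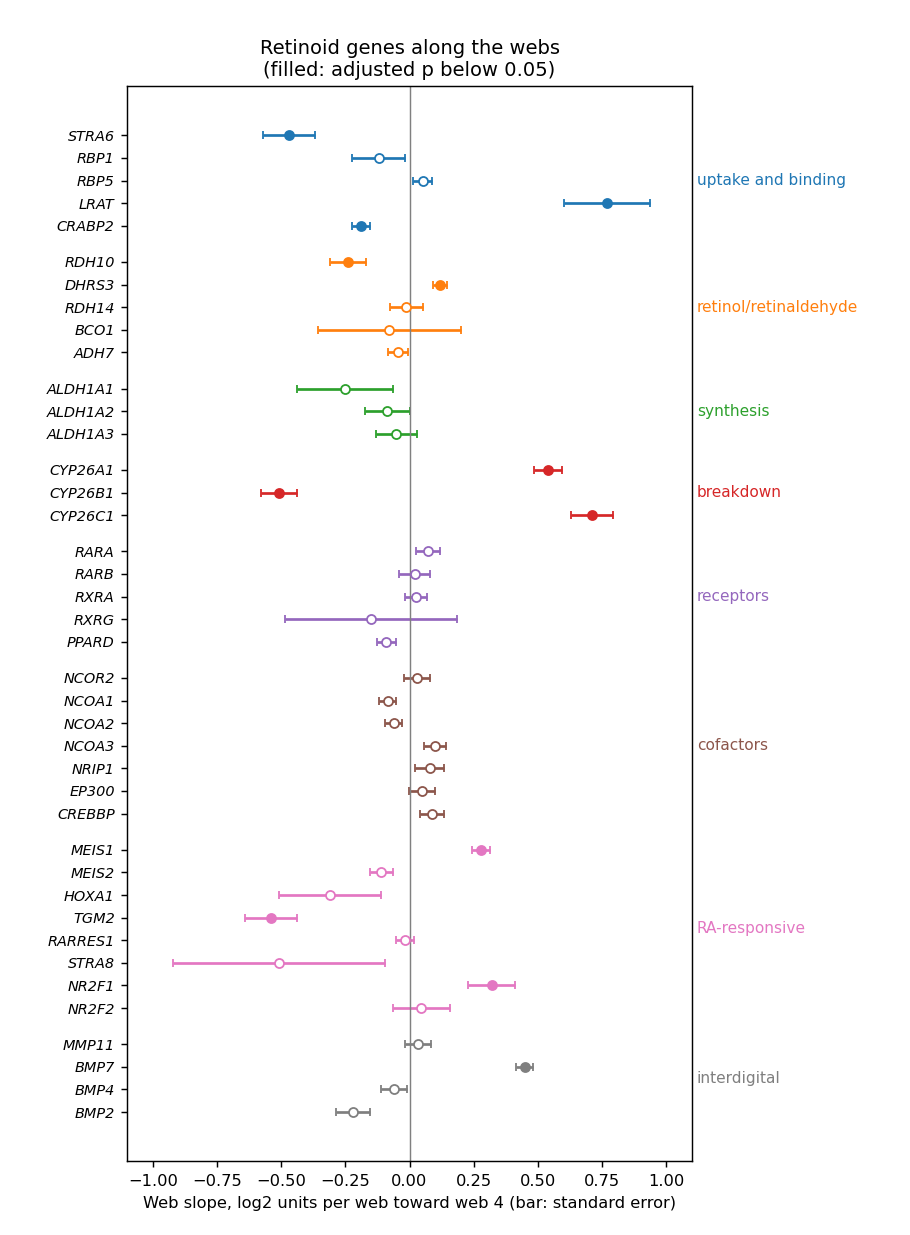
Slope in log2 units per web toward web 4 (horizontal axis) for the 40 tested retinoid genes, grouped by role, with the standard error as a bar. Filled points passed at an adjusted p below 0.05 in edgeR over all genes. All 3 breakdown genes are filled, 2 to the right and 1 to the left, and no receptor or cofactor is. Over all tested genes 11.1% passed.

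Genes of retinoid uptake, storage and binding moved both ways. Of 10 listed, 5 were tested, 1 rose and 2 fell. CRABP2, which carries retinoic acid to its receptors inside the cell, was the most abundant retinoid gene and fell from 1828 and 2046 TPM in web 1 of the forelimb and hindlimb to 1154 and 1386 TPM in web 4. Its slope was -0.19 ± 0.0341 (edgeR, adjusted p = 0.004), and it held without any single library. STRA6, the cell surface receptor for retinol-binding protein, fell at -0.47 ± 0.102 (adjusted p = 0.012) from 0.839 and 1.18 TPM to 0.417 and 0.385 TPM. LRAT, which stores retinol as ester, rose at 0.77 ± 0.169 (adjusted p = 0.014) from 1.55 and 1.16 TPM to 7.02 and 5.81 TPM, on counts of 18 to 114 per library. STRA6 lost its call without hindlimb web 1 (adjusted p = 0.086) or hindlimb web 4 (0.065), and LRAT without forelimb web 4 (0.067), hindlimb web 1 (0.053) or hindlimb web 4 (0.073).

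The enzymes that interconvert retinol and retinaldehyde, upstream of ALDH1A, were abundant. Of 12 listed, 5 were tested, 1 rose and 1 fell. RDH10, which oxidises retinol to retinaldehyde, stood at 206, 250.5, 169 and 95.2 TPM in forelimb webs 1 to 4 and at 183, 187, 146 and 139 TPM in hindlimb webs 1 to 4. Its slope was -0.24 ± 0.0691 (edgeR, adjusted p = 0.044). DHRS3, which reduces retinaldehyde back to retinol, stood at 288, 279.8, 314 and 313 TPM and at 259, 283, 309 and 342 TPM, with a slope of 0.12 ± 0.0278 (adjusted p = 0.021). The RDH10 call ended when any 1 library other than forelimb web 2 or hindlimb web 1 was left out (adjusted p 0.061 to 0.13), and the DHRS3 call without hindlimb web 1 (0.15) or hindlimb web 4 (0.11). RDH10 also passed the test for any difference among webs (adjusted p = 0.03), a call that ended without forelimb web 1, 2 or 3 or hindlimb web 3 (0.066 to 0.096). Over all alternatives run, with other tools and scalings among them, this call ended in 8 of 16 and the RDH10 slope call in 9 of 19. The highest adjusted p was 0.11 and 0.27.

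Genes that retinoic acid induces in other vertebrates did not share a direction. Of 12 listed, 8 were tested, 2 rose, 1 fell and 5 did not pass, with a median slope of -0.066 against 0.00015 for all genes. MEIS1, a proximal limb factor, rose from 73.9 and 59.8 TPM in web 1 to 121 and 129 TPM in web 4 (0.28 ± 0.0352, adjusted p = 5.0e-04). TGM2, a transglutaminase tied to interdigital cell death in mouse, fell from 17.0 and 16.6 TPM to 5.43 and 6.23 TPM (-0.54 ± 0.10, adjusted p = 0.0052), a slope close to that of CYP26B1. Without web 4 of both limbs the TGM2 call ended (adjusted p = 0.10).

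The orphan nuclear receptor genes NR2F1 and NR2F2 peaked in web 3. NR2F2 stood at 66.1, 87.2, 121 and 66.7 TPM in the forelimb webs and at 64.6, 84.0, 104 and 50.8 TPM in the hindlimb webs (any difference among webs, edgeR, adjusted p = 0.002). NR2F1 stood at 9.22, 15.2, 23.3 and 18.9 TPM and at 11.2, 15.1, 22.1 and 15.7 TPM (adjusted p = 0.0077). Its slope of 0.32 ± 0.092 (adjusted p = 0.048) lost its call without any 1 library other than hindlimb web 4 (0.052 to 0.24). The NR2F1 difference among webs lost its call without forelimb web 1 (0.078) or forelimb web 3 (0.056).

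Of 8 receptor cofactors 7 were tested and 0 passed for a slope in edgeR (2 at an unadjusted p under 0.05), beside 11.1% of all tested genes. NCOA1 was the most abundant at a mean of 27.2 TPM (-0.085 ± 0.0331, edgeR, adjusted p = 0.14). Among 5 interdigital genes tied to retinoic acid in mouse, BMP7 rose along the webs from 35.5 and 49.7 TPM in web 1 to 98.9 and 109 TPM in web 4 (0.45 ± 0.0332, adjusted p = 2.6e-05). BMP2 passed only the test for any difference among webs (adjusted p = 0.01), which ended without forelimb web 2 (0.053) or hindlimb web 2 (0.051). MMP11 and BMP4 passed neither, and FGF8 was not tested, with 0 counts in 5 libraries and 8 to 18 in the other 3.

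Over the 8 libraries, the genes whose log2 CPM was most like that of each of the 5 were sought among 9255 others with a unique symbol and a mean of at least 2 CPM. CYP26A1 was closest to P2RY2 (Pearson r = 0.984), GXYLT2 (0.980) and PCDH17 (0.974), which all rose along the webs. P2RY2 stood at 1.58, 2.22, 5.33 and 7.41 TPM in forelimb webs 1 to 4. CYP26C1 was closest to CREB3L1 (0.993), ADAMTS19 (0.990) and TBX2 (0.990). TBX2 ran at 29.3, 50.4, 66.8 and 81.4 TPM in forelimb webs 1 to 4 and at 27.3, 39.6, 63.0 and 98.8 TPM in hindlimb webs 1 to 4. CYP26B1 was closest to ITGA11 (0.989), ECRG4 (0.987) and NFIX (0.983), and ECRG4 fell from 446 and 392 TPM in web 1 to 149.6 and 164 TPM in web 4. ALDH1A2 was closest to TCP11L1 (0.985), OVOL2 (0.964) and USP12 (0.959), and RARB to NOL9 (0.972), CAPN9 (0.931) and RFLNA (0.908). None of the last 6 passed the test for a slope (adjusted p 0.70 to 0.92). With 8 libraries that share their web order, the highest of 9255 correlations are high in any case, and they are given as a description. Genes picked this way follow the course of the gene they match, so their slopes or lack of one come with the choice.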

How the data were processed

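Total RNA of the pooled webs was made into NEBNext Ultra libraries and read as Illumina paired ends, per the labels' protocols. The submitters' processing notes name HISAT2 2.2.1 and StringTie 2.1.7. The genome build was not given in the sources used here, nor were annotation and strand setting. Reads of overlapping or antisense genes cannot be separated. The authors deposited whole-number counts per gene, not normalised, and TPM per gene with symbols. Multiples of 4 made up 35.5% of the counts from 1 to 40, where equal use of all numbers gives 25%. The source of this share was not tested. Single counts were therefore not taken as separate read pairs, and counting intervals were left out.

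Counts were tested in R 4.3.3 with edgeR 4.0.16 (filterByExpr by limb, minimum count 10, minimum total 15, TMM scaling, quasi-likelihood tests, Benjamini-Hochberg at 0.05 over 14386 genes). The limb test had limb alone, the web slope limb and web number, the test for any difference limb and web as a factor, and the interaction their product, each on all 8 libraries. Log2 CPM used a prior count of 2. Standard errors are the estimate over the root of F. The tests were tried on simulated counts. Alternatives were DESeq2 1.42.0, limma 3.58.1 (voom, log2(TPM + 1) and log2(TPM + 0.1)), other scalings, no filter, a robust prior, a replicate block and single libraries left out.

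Deviations from the limb means correlated between the libraries of a web at 0.498, 0.189, 0.242 and 0.327 for webs 1 to 4, each above 0.1. The 2 libraries of a web share their position, while all 8 libraries share the animals. Forelimb webs 1 to 4 correlated with a different hindlimb web at 0.139, 0.184, 0.237 and 0.177 at most. For webs 2 and 3 the same-web value was thus hardly higher. The genes and lists were chosen with earlier results of these data known. Named genes are the 5 genes, retinoid list genes that passed a test (or the most abundant of a list with none), and the 3 genes most correlated with each of the 5. Neighbouring genes, marker genes, ALDH1A1, PPARD, MMP11, BMP4 and FGF8 were named beside them after their values were seen.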

Additional observations from a re-analysis of the deposited data

How the results depend on the processing

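The slopes of the 3 CYP26 genes and their differences among webs kept direction and call under all alternatives run. Over the 19 alternatives of the slope, CYP26A1 ranged from 0.49 to 0.59, CYP26B1 from -0.66 to -0.41 and CYP26C1 from 0.52 to 0.80 (highest adjusted p 0.0057, 0.0057 and 0.017). No limb, interaction or slope value of ALDH1A2 or RARB passed under any alternative run. The limb difference kept its sign in all 17 alternatives for ALDH1A2 (-0.56 to -0.26) and CYP26B1 (-0.57 to -0.11), while the limb differences, slopes and interactions given next changed sign in at least 1. Leaving out 1 library at a time, log2 limb differences ranged from -0.19 to 0.40 for CYP26A1, -0.30 to 0.47 for CYP26C1 and -0.16 to 0.025 for RARB. Slopes ranged from -0.20 to 0.011 for ALDH1A2, -0.051 to 0.12 for RARB, -0.17 to 0.042 for ALDH1A3 and -0.047 to 0.19 for NR2F2. Interactions ranged from -0.40 to 0.23 for ALDH1A2, -0.21 to 0.046 for CYP26A1, -0.12 to 0.44 for CYP26B1, -0.10 to 0.21 for CYP26C1 and -0.38 to 0.022 for RARB. The fitted range of RARB among webs was 0.24 to 0.58, and it passed at 0.58 without forelimb web 4.

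The RARB slope was -0.0066 on log2(TPM + 1) and -0.0073 on log2(TPM + 0.1), and that of NR2F2 -0.011 on both. Without web 1 of both limbs, chosen after seeing the data, slopes were 0.22 for ALDH1A2, -0.12 for RARB and -0.23 for NR2F2, and without web 4 that of ALDH1A3 was 0.21. With 1 of these webs left out, slopes of BMP2 (-0.42 without web 1) and NR2F2 (0.41 without web 4) passed, and those of STRA6, LRAT and DHRS3 passed in neither case.

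Counts of genes moved more. The limb test called 3 genes, 18 in DESeq2 and 24 with the replicate block, which changed no call of the 5 genes. The interaction called 0 genes, 1 in DESeq2, 1 with the replicate block and 0 to 2 with 1 library left out. The slope called 1600 genes, 875 to 1889 with 1 library left out, 681 without web 1 of both limbs and 860 with limbs summed per web. The web factor called 1349 genes, 2174 in DESeq2 and 729 to 1593 with 1 library left out. For these moves the cause was not tested, beyond the fewer libraries of the last kinds.

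The log2 ratio of synthesis to breakdown was -2.54 in the forelimb and -2.68 in the hindlimb with CYP26B1 alone as breakdown. With ALDH1A1 to ALDH1A3 summed it was 2.63 and 2.85, and the hindlimb minus forelimb difference went from -0.30 to 0.22. Depth limits LRAT, ALDH1A1, STRA6 and CYP26C1, which had lowest counts of 18, 28, 76 and 86 in a library. No value of the 5 genes stood apart from its limb's others by Dixon's test. The values within a limb come from different web positions and are not replicates. The test therefore cannot check a single library of a graded gene.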
